A study of Mus musculus with 4 samples.

Results

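The collagen chain genes of tumor-associated fibroblasts were examined across 4 sorted populations of a mouse melanoma model. Members were all genes whose symbol in the deposited gene list is Col, a number, the letter a and a number, which gave 44 of the 33696 genes listed. The rule used the symbol alone and no measured value, although it was set with earlier results of these data known. By the kind of structure their protein forms, 11 are fibrillar, 9 network-forming, 9 fibril-associated with interrupted helices (FACIT), 6 beaded-filament, 4 transmembrane, 2 multiplexin and 1 anchoring-fibril chains, and the other 2 (Col26a1 and Col28a1) fit none of these.

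All 4 populations came from Cxcl13-cre-tdTomato × R26R-eGFPflox mice on a C57Bl/6 background that had received an intraperitoneal injection of B16-F1-OVA, a melanoma line that expresses ovalbumin, with tumors taken on day 14. Cells without CD45 and CD31 and with high podoplanin were sorted on both reporters, and the study asked how cancer-associated fibroblasts that make, made or never made CXCL13 differ. In these mice tdTomato and Cre are under the Cxcl13 promoter, so that tdTomato marks cells with the promoter active at harvest, and eGFP marks cells in which Cre has at some time recombined the R26R locus. The populations were tdTomato-neg eGFP-neg, tdTomato+ eGFP-neg, tdTomato+ eGFP+ and tdTomato-neg eGFP+, with 1 droplet library each. The study used animals of both sexes, and how many mice, of which sex, entered each library is not given in the sources used here.

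The libraries held 11745, 5299, 984 and 6461 barcodes in the order just given, with 90259852, 52046896, 10071954 and 63310850 unique molecular identifiers (UMIs, each standing for a captured transcript). Fibroblasts were cells with 500 to 6000 genes, at most 10% mitochondrial UMIs and no UMI of Ptprc (CD45) or Pax3 (a melanocyte factor). They numbered 10397, 4692, 875 and 5827, or 21791 of the 22691 cells that passed the limits on genes and mitochondrial UMIs, and melanoma cells, with a UMI of both Pax3 and Mlana, numbered 441. Neither reporter is in the gene list, but Cxcl13 stood at 221, 2196, 1115 and 198 CPM (UMIs of a gene for every 1000000 UMIs of the cells) in the fibroblasts of these libraries, higher in both tdTomato+ libraries, and eGFP could not be checked from the reads. The label held in so far as Pdgfra, a fibroblast receptor, stood at 175, 340, 285 and 240 CPM in the 4 fibroblast sets against 20.6 in melanoma cells, although Fbln1, of the same matrix fibroblast list, stood at 75.8 over all fibroblasts against 96.0. The 13 genes of that list summed to 3565, 3126, 2623 and 1710 CPM in the 4 sets and to 408 in melanoma cells. This sum was highest in the tdTomato-neg eGFP-neg library, where Pdgfra was lowest. In the tdTomato-neg eGFP+ library it lay near the mesothelial sum given below. Of 7 endothelial genes, summing to 32.5, 62.5, 75.5 and 54.6, Flt1 was the most abundant (21.1, 56.1, 69.6 and 41.5), while Cdh5, which defines endothelium, stood at 0.51 over all fibroblasts. Mesothelial markers were also present, at 1469, 610, 772 and 1693 CPM summed over 14 genes, none of them at 0, with Nkain4 the most abundant in all libraries but tdTomato+ eGFP-neg, where Wt1 was. The libraries shared few barcodes, 57 in all. With 1 library per population no difference could be tested: intervals below cover counting error only and not the spread between mice.

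Collagens are secreted proteins in which chains wind around each other into a stiff helix. Fibrillar collagens pack side by side into the cables that give tissue its tensile strength, network collagens such as type IV form the sheets of basement membranes, FACIT and beaded-filament collagens decorate and link fibrils, and multiplexins sit at basement membranes. Fibroblasts are the main source of fibrillar collagen in tumors, and new chains need hydroxylases, a dedicated chaperone, propeptide proteases and lysyl oxidases to become fibers.

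Collagen transcripts made up 20303, 30522, 29851 and 20114 CPM in the fibroblasts of the tdTomato-neg eGFP-neg, tdTomato+ eGFP-neg, tdTomato+ eGFP+ and tdTomato-neg eGFP+ libraries. Both tdTomato+ libraries were therefore higher than both tdTomato-neg libraries. The tdTomato-neg eGFP-neg fibroblasts were also shallower, at a median of 5443 UMIs against 9041.5, 8460 and 8296 in the fibroblasts of the other libraries. The median cell gave the same order of the tdTomato+ against the tdTomato-neg libraries, at 12169, 26361, 26114 and 15350. Fibrillar chains supplied 89.6% of collagen UMIs over all fibroblasts, beaded-filament chains 5.07%, network chains 3.23%, FACIT chains 1.07% and multiplexins 1.03%. The fibrillar share ran from 87.9% to 91.1% across libraries. Relative to their size the shares of smaller classes moved more, from 4.28% to 5.58% for beaded-filament, from 2.72% to 3.99% for network, from 0.85% to 1.37% for FACIT and from 0.737% to 1.26% for multiplexin chains. UMIs count transcript ends, and levels of different chains below are on that scale with no division by length.

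Of the fibrillar chains, Col3a1, the single chain of type III collagen, was the most abundant collagen transcript, at 9172, 14884, 12783 and 9220 CPM in the same order of libraries. Col1a1 and Col1a2, the chains of type I collagen, stood at 3591, 5835, 7393 and 3817 and at 3858, 5289, 5379 and 3902. These 3 genes together held 83.8% of all collagen UMIs, and their share varied from 81.9% to 85.6% between libraries. Type I collagen usually carries more of the first chain than of the second, and the ratio of Col1a1 to Col1a2 transcripts was 0.931, 1.10, 1.37 and 0.978, highest in the tdTomato+ eGFP+ library. Type V collagen starts and limits the width of fibrils, and its chain Col5a2 stood at 638, 725, 701 and 512 and its chain Col5a1 at 334, 446, 437 and 304. Col24a1, a minor fibrillar chain known from developing bone, departed most from this even pattern, at 98.4, 314, 328 and 247, with all 3 reporter-positive libraries above the tdTomato-neg eGFP-neg library. Col2a1, Col11a1 and Col11a2, chains typical of cartilage, stayed under 1 CPM in every fibroblast library.

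**Figure D1:**
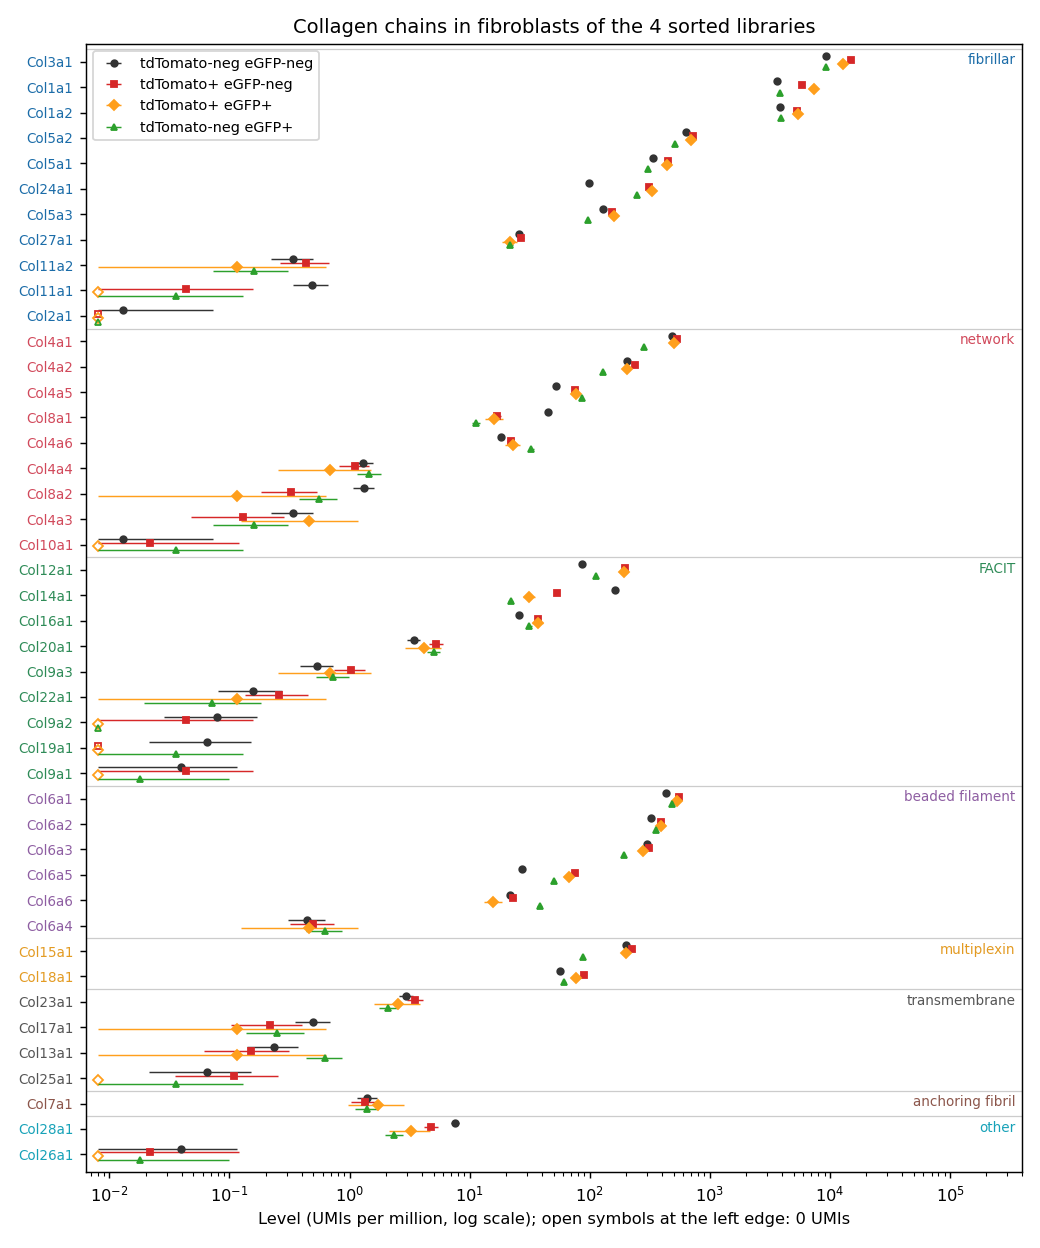
The level of each of the 44 chains, in CPM on a log axis, in the fibroblasts of the 4 libraries, with exact 95% Poisson intervals (counting error only) and chains grouped by class. The levels span from Col3a1 at 9172 or more in each library to chains with no UMI in 1 or more libraries, and Col14a1 and Col24a1 stand out for the distance between the tdTomato-neg eGFP-neg library and the others.

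Among network chains, Col4a1 and Col4a2, which assemble into the common type IV collagen of basement membranes, stood at 488, 528, 500 and 285 and at 204, 237, 205 and 130 CPM. Both were lowest in the tdTomato-neg eGFP+ library. Col4a5 and Col4a6, another type IV combination found in some epithelial and smooth muscle basement membranes, stood at 51.8, 75.3, 77.0 and 86.1 and at 18.2, 21.9, 22.8 and 32.7, highest in that library and lowest in the tdTomato-neg eGFP-neg library. Col4a3 and Col4a4, the chains of the glomerular form, were under 2. Col8a1, a short-chain network collagen of vessel walls and corneal endothelium, stood at 45.3, 16.9, 15.9 and 11.3.

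Col4a1 with Col4a2, and Col4a5 with Col4a6, lie head to head in the genome. Because the chains of each of these combinations moved together, their starts are given here, from RefSeq on GRCm38.p6. The starts of Col4a1 (minus strand) and Col4a2 (plus strand) lie at positions 11312826 and 11312805 of chr8 and so share 22 bases. Those of Col4a6 (minus strand) and Col4a5 (plus strand) lie at 141474076 and 141475419 of chrX with 1342 bases between them, and the 250 bases before each start, which do not overlap, are shown as the stretch next to chains that ran against most others, 5′ to 3′ on the strand of the gene. Capitals mark GGGCGG (the GC box) or CCAAT on either strand.
Col4a5 at chrX:141475169-141475418, plus strand: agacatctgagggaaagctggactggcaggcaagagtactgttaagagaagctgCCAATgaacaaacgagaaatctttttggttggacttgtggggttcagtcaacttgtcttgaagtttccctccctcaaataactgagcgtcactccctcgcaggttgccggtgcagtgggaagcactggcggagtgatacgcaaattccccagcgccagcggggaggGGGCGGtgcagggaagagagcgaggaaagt
Col4a6 at chrX:141474077-141474326, minus strand: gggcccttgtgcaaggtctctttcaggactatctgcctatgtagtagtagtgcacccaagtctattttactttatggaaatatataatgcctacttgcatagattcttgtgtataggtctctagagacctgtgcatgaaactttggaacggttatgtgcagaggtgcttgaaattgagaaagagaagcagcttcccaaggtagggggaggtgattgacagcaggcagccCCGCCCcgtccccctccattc
Both windows hold 1 GC box, and that of Col4a5 also holds 1 CCAAT. RefSeq windows were matched for 35 of the 44 chains, those of Col1a1, Col2a1, Col4a3, Col5a2, Col9a3, Col12a1, Col14a1, Col22a1 and Col26a1 being unmatched. GGGCGG, searched on both strands with its reverse complement CCGCCC in the 250 bases before the start, was in 21 of these 35 (60%) and in 32.7% of all 32851 windows. CCAAT or ATTGG was in 13 (37.1%) against 33.8%, and TATAAA or TTTATA in 5 (14.3%) against 12.4%. A chain with several windows (Col6a2, Col9a1 and Col18a1) counted if any of them matched. The share of all windows was taken by window, so the 2 shares are not on quite the same base. A match describes the letters and is not a measured binding site.

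These type IV combinations also differed in pattern across clusters and libraries. Levels were compared over the 16 combinations of library and cluster with at least 50 cells in clusters 0 to 4 (described below), which share libraries. Clusters 5 and 6, led by immune and melanoma genes, were left out. Over these 16 combinations Col4a1 and Col4a2 had the highest Pearson r of all 253 pairs of the 23 more abundant chains (r = 0.99, Spearman rho = 0.97). By rho 3 pairs, Col1a1 with Col1a2, Col5a3 with Col15a1 and Col1a2 with Col3a1, were slightly above it. Col4a5 and Col4a6 had r = 0.96 and rho = 0.87, whereas Col4a1 and Col4a6 had r = -0.92 and rho = -0.90. The median r of the 253 pairs was 0.58 and 179 were above 0, so most chains rose and fell together while the second type IV combination ran against them. It was not alone in this. Col6a6 also ran against many chains (r = -0.75 with Col27a1 and -0.69 with Col14a1), although it was near 0 with Col1a1 (0.03). Col6a5 ran with Col4a5 and Col4a6 (r = 0.66 with each). The lowest r of any pair, -0.98, was between Col4a5 and Col8a1.

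Of the FACIT chains, Col12a1, which coats type I fibrils in tendon and stressed tissue, stood at 85.5, 195, 192 and 112 CPM and was higher in both tdTomato+ libraries. Col14a1, which also binds fibrils and limits their fusion, stood at 162, 52.8, 31.3 and 21.9, highest in the tdTomato-neg eGFP-neg library. Col16a1 stood at 26.0, 37.0, 36.8 and 31.4, and Col20a1 at 3.42, 5.25, 4.14 and 5.0, while the type IX chains typical of cartilage, Col19a1 and Col22a1 were near or under 1. The beaded-filament chains Col6a1, Col6a2 and Col6a3, which build the common type VI microfibril around cells, stood at 428, 550, 529 and 485, at 323, 388, 389 and 355 and at 300, 314, 278 and 193. Col6a5 and Col6a6, which can take the place of the third chain, were lower, at 27.5, 74.9, 66.6 and 50.2 and at 21.8, 23, 15.8 and 38.2. The multiplexins Col15a1 and Col18a1, the latter the source of endostatin, stood at 199, 226, 199 and 87.0 and at 56.7, 89.8, 77.0 and 61.3. Transmembrane chains were scarce, with Col23a1 at 2.97, 3.53, 2.53 and 2.11 the most abundant. Col7a1, which anchors the epidermis to the dermis, stood at 1.40, 1.34, 1.73 and 1.39.

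Against melanoma cells, fibroblasts were higher for 29 of the 41 chains with at least 10 UMIs over both sets and lower for 5, where a chain was called past a log2 fold of 1 with its exact 95% interval excluding 0. Over all genes 20.8% were higher and 14.2% lower by the same rule. The median log2 fold of the chains was 3.18 against -0.01 for all genes. Of the most abundant chains, Col3a1 stood at 3.61 (95% interval 3.58 to 3.64), Col1a1 at 3.70 (3.65 to 3.76), Col1a2 at 3.69 (3.64 to 3.74), Col5a2 at 3.56 (3.43 to 3.69) and Col5a1 at 3.54 (3.37 to 3.71). Those of the other classes lay near them, with Col6a1 at 3.49, Col6a2 at 3.35, Col6a3 at 3.38, Col4a1 at 3.20, Col4a2 at 3.32 and Col15a1 at 3.38. Col24a1 had a log2 fold of 4.35 (4.06 to 4.67), which rested on the libraries summed: it was 3.14, 6.29 and 4.44 within the tdTomato-neg eGFP-neg, tdTomato+ eGFP-neg and tdTomato-neg eGFP+ libraries, 5.08 without the tdTomato-neg eGFP-neg library, 3.96 without the tdTomato+ eGFP-neg library, 2.76 with no upper limit of genes per cell and 5.32 with doublets removed. Of the less abundant chains, Col16a1 stood at 1.91 and Col4a5 at 2.52, and Col14a1 at 2.70, or 4.91 when the tdTomato-neg eGFP-neg library was left out. Other named folds also moved beyond their counting intervals under the alternatives, with Col3a1 from 2.85 (no upper limit of genes per cell) to 4.33 (doublets removed), Col1a1 from 3.07 to 4.43, Col1a2 from 2.88 to 4.4, Col5a2 from 2.74 to 4.56 and Col5a1 from 2.64 to 4.37, and all stayed above 1.

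The separation held within libraries. In the tdTomato-neg eGFP-neg library 27 of 39 chains were higher and 3 lower (20.7% and 12.7% of all genes), in the tdTomato+ eGFP-neg library 25 of 34 and 1 (15.5% and 15.9%), and in the tdTomato-neg eGFP+ library 25 of 35 and 0 (16.7% and 13.1%). The tdTomato+ eGFP+ library had 14 melanoma cells and was not compared. Melanoma cells were deeper, at a median of 20752 UMIs per cell against 7239 in fibroblasts, so shares of cells were compared after thinning each cell to 1000 UMIs, which left out 615 fibroblasts and 1 melanoma cell. Col3a1 was then found in 94.5% of fibroblasts and 33.4% of melanoma cells, against 98.0% and 89.1% unthinned.

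As a description of the 23 chains with at least 1000 fibroblast UMIs, a limit that admits only chains abundant in fibroblasts, the level in melanoma cells had a median of 8.89% of that in fibroblasts, from 4.89% for Col24a1, whose share moves with the libraries as its fold does, to 26.7% for Col16a1. For 36 marker genes of fibroblasts and mesothelium the same share had a median of 12.9%, from 7.90% for Rspo1 to 127% for Fbln1, a basement membrane protein that was higher in melanoma cells, with 9.58% for Dcn, a proteoglycan of collagen fibrils. The collagen UMIs were unevenly spread over melanoma cells, with a median of 432 collagen CPM and a 95th percentile of 9626. With the expected share of doublets removed the fold of Col3a1 was larger, as given above, and the part of free RNA was not tested.

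**Figure D2:**
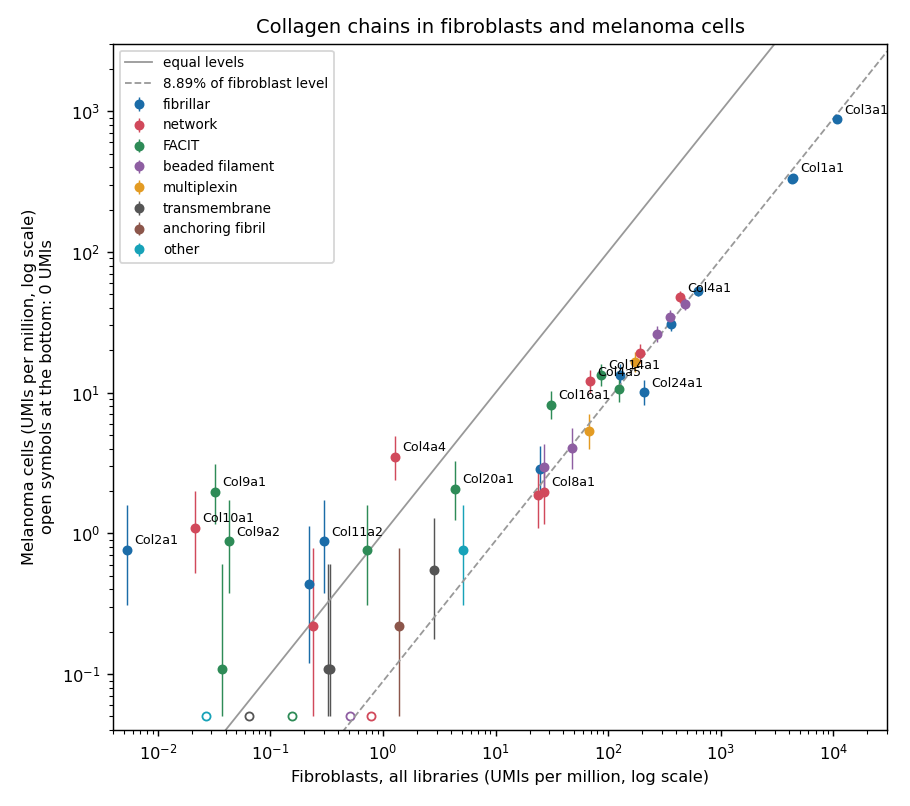
The level of each chain in fibroblasts (horizontal) against melanoma cells (vertical), in CPM on log axes, with exact 95% Poisson intervals of the melanoma level (counting error only), colors for the collagen class and open symbols for chains with no melanoma UMI. The dashed line marks 8.89% of the fibroblast level. The abundant chains run parallel to the line of equality at a median log2 fold of 3.18 for all tested chains. Col9a1, Col10a1, Col9a2, Col11a2 and Col4a4, called lower in fibroblasts, lie on the melanoma side of that line. Col2a1, Col11a1, Col19a1 and Col9a3 lie there too and were not called.

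The 5 chains lower in fibroblasts rested on few UMIs. Col9a1, a chain of cartilage type IX collagen, had 6 UMIs in fibroblasts and 18 in melanoma cells (0.032 and 1.97 CPM, log2 fold -5.95, -7.57 to -4.55). Col10a1, the network collagen of hypertrophic cartilage, had 4 and 10 UMIs (-5.68, -7.81 to -3.89), and Col9a2 had 8 and 8 (-4.36). Col11a2 had 56 and 8 (-1.55, -2.63 to -0.27). Col4a4 had 238 and 32 UMIs (1.27 and 3.51 CPM, -1.47, -2.0 to -0.89). Melanoma cells of every library had a UMI of Col9a1, with 10, 3 and 3 in the tdTomato-neg eGFP-neg, tdTomato+ eGFP-neg and tdTomato-neg eGFP+ libraries and 2 in the tdTomato+ eGFP+ library. Without the tdTomato-neg eGFP-neg library 2 chains were lower, and without thin chains (at least 100 UMIs) 1 was. Of chains with no UMI in melanoma cells, Col8a2 was at least 2.39-fold and Col6a4 at least 1.56-fold higher in fibroblasts against the level of 3 UMIs in all melanoma cells, and Col22a1, Col25a1 and Col26a1 were under that level in fibroblasts too.

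Between libraries a chain was called past a log2 fold of 0.5 with its interval excluding 0. The 3 comparisons with tdTomato-neg eGFP-neg fibroblasts share that library. In tdTomato+ eGFP-neg fibroblasts 10 of 38 chains were higher and 7 lower, against 12.1% and 11.6% of all genes, and the median log2 fold was 0.25 against 0.05 for all genes. Under the alternatives 8 to 19 chains were higher and 1 to 7 lower. Col24a1 had the largest rise of the 12 most abundant chains, at 1.67 (1.63 to 1.71), followed by Col3a1 and Col1a1 at 0.70 each. Col1a2 at 0.46, Col5a1 at 0.42, Col6a1 at 0.36, Col6a2 at 0.27, Col4a2 at 0.22, Col15a1 at 0.19, Col5a2 at 0.18, Col4a1 at 0.11 and Col6a3 at 0.07 did not pass the limit. Of the less abundant chains, Col6a5 (1.45) and Col12a1 (1.19) were higher and Col14a1 (-1.62), Col8a1 (-1.42) and Col28a1 (-0.66) lower. Col8a1 turned to 0.028 in the clusters, described below, where the mesothelial marker list stood highest (clusters 2 and 4). Col28a1 turned to 0.29 in cells with a Y-linked UMI and no Xist.

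In tdTomato+ eGFP+ fibroblasts 6 of 37 chains were higher and 5 lower, against 6.7% and 9.03% of all genes, with medians of 0.20 and -0.04. These counts ran from 5 to 14 higher and from 2 to 7 lower under the alternatives. Col24a1 again had the largest rise, at 1.74, and Col1a1 rose by 1.04, while Col3a1 and Col1a2, both at 0.48, did not pass the limit. Col14a1 at -2.37 and Col8a1 at -1.51 were lower, but Col8a1 turned to 0.51 in clusters 2 and 4. Against tdTomato+ eGFP-neg fibroblasts this library had 0 of 35 chains higher and 3 lower (1.73% and 4.67% of all genes), which were Col14a1 at -0.75, Col6a6 at -0.55 and Col28a1 at -0.57. The tdTomato+ libraries thus differed little in most chains.

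In tdTomato-neg eGFP+ fibroblasts 7 of 37 chains were higher and 10 lower, against 8.54% and 11.2% of all genes, with medians of -0.01 and 0.06. The alternatives gave 4 to 7 higher and 2 to 13 lower. Col3a1 (0.01), Col1a1 (0.09) and Col1a2 (0.02) were close to the tdTomato-neg eGFP-neg library, whereas Col24a1 was higher at 1.33. Basement membrane chains divided over all fibroblasts, with Col15a1 at -1.19, Col4a1 at -0.78 and Col4a2 at -0.65 and with Col4a6 at 0.85 and Col4a5 at 0.73. In the clusters where the mesothelial marker list stood highest (clusters 2 and 4), Col15a1, Col4a1 and Col4a2 turned to 0.15, 0.20 and 0.30. Col4a6 and Col4a5 stayed above 0 under every alternative run for them. Col6a3 was lower at -0.63 while Col6a5 and Col6a6 were higher at 0.87 and 0.81. These directions also turned with the cells compared, Col6a3 to 0.36 in clusters 2 and 4. Col6a5 and Col6a6 turned to -0.27 and -0.68 in cells with Xist and no Y-linked UMI, that of Col6a5 not past the limit. Col14a1 at -2.89 was the lowest of the chains with at least 1000 UMIs. Over all fibroblasts the melanoma marker list summed to 342, 54.6, 42 and 81.4 CPM in the 4 libraries, with 1 of its 8 genes, Pax3, at 0 by the rule and Dct the most abundant in both tdTomato-neg libraries and Mitf in the others, and the tdTomato-neg eGFP-neg library was thus the highest. Its part in these folds was not tested.

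Cells were then clustered with the collagens and the genes of collagen assembly held out, so that the chains played no part in setting the clusters. Cluster 0 (9213 cells, led by Nos2, Trf, Csf3 and other genes) and cluster 2 (4504 cells, led by cycling genes) were left unnamed. Cluster 1 (4667 cells) was matrix-fibroblast-like, with Mfap4 and Postn among its leading genes, and cluster 4 (1154 cells) was mesothelial-like, with Muc16 and Krt18. Cluster 3 (1832 cells) had the universal fibroblast markers highest but 1 of them among its 10 leading genes and a median of 1735 UMIs per cell, 0.309 of that of its libraries, and stayed unnamed. Of its cells 1729 came from the tdTomato-neg eGFP-neg library. Clusters 5 and 6 (234 and 187 cells) were led by immune and melanoma genes.

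Collagen transcripts stood at 22832, 38541, 15978, 7620 and 9176 CPM in clusters 0 to 4. Cluster 1 was thus the highest and clusters 3 and 4 the lowest. Col3a1 stood at 10631, 17928, 7333, 2369 and 4584 and Col1a1 at 4643, 6615, 3210, 562 and 1238 in the same order. Col4a1, at 272, 1156, 168, 531 and 150, and Col15a1, at 95, 523, 48.3, 78.3 and 11.5, were both highest in cluster 1. Col14a1, at 17.2, 232, 11.7, 1124 and 41.0, was highest in cluster 3. Col24a1, at 308, 78.6, 208, 3.90 and 51.0, and Col6a5, at 66.5, 13.2, 54.5, 3.90 and 34.9, were highest in clusters 0 and 2. Col4a5, at 88.2, 19.5, 81.0, 33.0 and 103, was lowest in the cluster where Col4a1 was highest.

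Between clusters 1 and 4, 20 of 37 chains were higher in the matrix-fibroblast-like cluster and 7 lower past a log2 fold of 1, against 13% and 12.3% of all genes, with a median of 2.06 for the chains and 0.00 for all genes. Col15a1 (5.50), Col8a1 (4.08), Col5a3 (3.79), Col6a3 (3.30), Col4a1 (2.94) and Col4a2 (2.92) were more strongly separated than Col1a1 (2.42), Col1a2 (2.15) and Col3a1 (1.97). The 7 that were higher in the mesothelial-like cluster were all of types IV and VI, Col4a3 (-2.42), Col4a4 (-1.42), Col4a5 (-2.40), Col4a6 (-3.74), Col6a4 (-3.31), Col6a5 (-1.40) and Col6a6 (-1.68). Some of these rested on few UMIs. Col4a3 had 7 in each of the 2 clusters, and Col4a4 had 52 in cluster 1 and 26 in cluster 4. Col6a4 had 96 over all fibroblasts. When clusters were joined by the marker list they scored highest on, 0 and 1 (matrix) against 2 and 4 (mesothelial), 16 of 38 chains were higher and 0 lower (7.69% and 5.76% of all genes). Without the tdTomato-neg eGFP-neg library 9 were higher, the lower chains numbered up to 7 under the alternatives, and clusters 0 and 2 were not led by the markers of those lists.

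In cluster 3, 12 of 38 chains were lower than in all other fibroblasts, against 9.72% of all genes, and 5 were higher, a share near the 12.7% of all genes. The lower chains included Col24a1 (-5.75), Col6a5 (-3.64), Col1a1 (-2.99) and Col3a1 (-2.21), while Col4a1 (0.28) and Col6a3 (-0.19) were close to the rest. The higher chains were Col14a1 (4.10, 4.05 to 4.15), Col28a1 (2.10), Col4a3 (4.12), Col4a4 (2.05) and Col17a1 (2.58), a chain of epithelial hemidesmosomes. Of these, Col4a3 and Col4a4 rested on 12 and 19 UMIs in cluster 3, and Col17a1 had 63 over all fibroblasts. The ratio of Col1a1 to Col1a2 was 0.473 in this cluster.

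Of the cells of cluster 3 with Xist or a Y-linked transcript, 98.6% had Xist alone, against 48.6% to 63.9% in clusters 0, 1, 2 and 4, so it was also compared among Xist-only cells of the tdTomato-neg eGFP-neg library (665 against 1959 cells), a comparison added after the data had been seen. There 10 of 32 chains were lower and 7 higher, against 9.27% and 14.1% of all genes. Col24a1 (-6.06), Col1a1 (-3.04) and Col3a1 (-2.30) were again lower and Col14a1 (3.06) and Col28a1 (2.03) higher. Col6a5 was less far below the rest, at -1.50, and Col6a6, at 0.07 over all cells, was higher at 2.22.

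**Figure D3:**
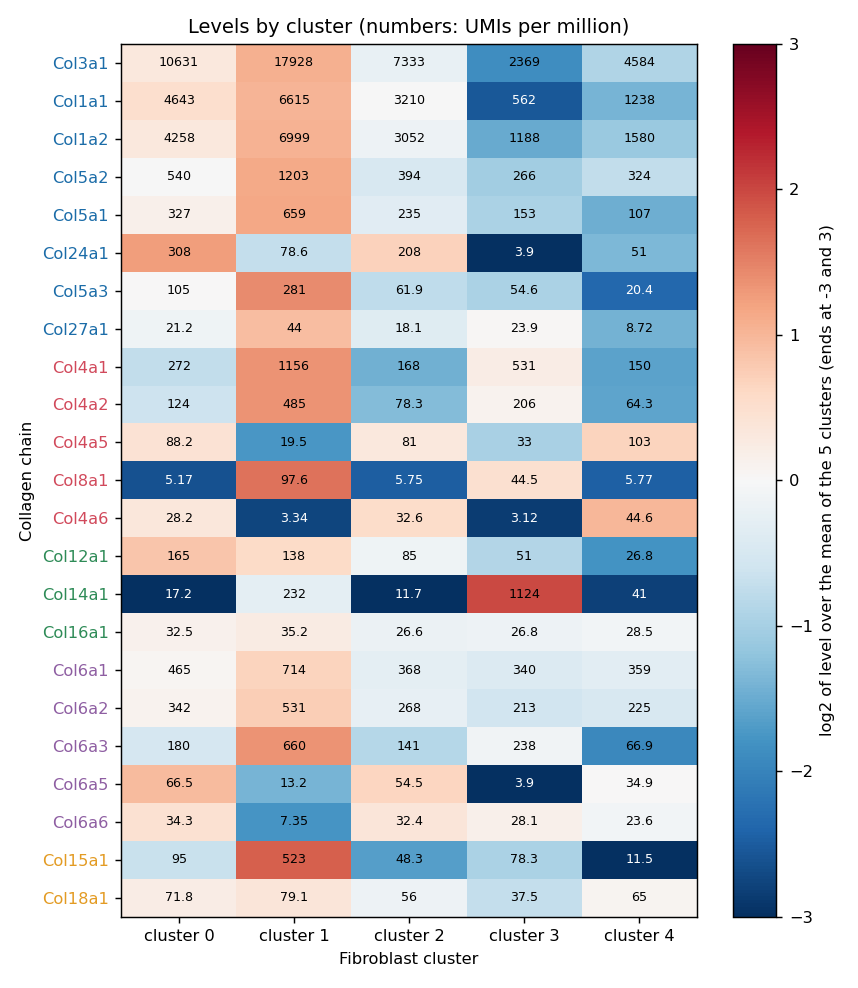
Level of the more abundant chains in clusters 0 to 4, with the CPM printed in each cell and the color giving the log2 ratio to the mean over these clusters, chains ordered by class. Cluster 1 is above the mean for most chains, Col4a5, Col4a6, Col6a5, Col6a6 and Col24a1 depart from that, and Col14a1 is highest in cluster 3.

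The libraries differed in their clusters. Cluster 1 held 34.5%, 12.1%, 11.1% and 7.17% of the fibroblasts of the tdTomato-neg eGFP-neg, tdTomato+ eGFP-neg, tdTomato+ eGFP+ and tdTomato-neg eGFP+ libraries, cluster 0 held 22.9%, 63.0%, 63.7% and 56.9%, and cluster 3 held 16.6%, 0.725%, 0.229% and 1.15%. Within clusters collagen transcripts stood at 13758, 29568, 30556 and 20600 CPM in cluster 0, at 34494, 50342, 48609 and 49182 in cluster 1 and at 10334, 24710, 21778 and 14696 in cluster 2. In each of these clusters the tdTomato-neg eGFP-neg library was the lowest of the 4.

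In cluster 0, 20 of 32 chains were higher and 1 lower in tdTomato+ eGFP-neg than in tdTomato-neg eGFP-neg cells (15.6% and 7.39% of all genes), in cluster 1, 8 of 35 and 2 (12.2% and 3.55%), and in cluster 2, 18 of 31 and 0 (18.6% and 7.3%). Col3a1 had log2 folds of 1.29, 0.65 and 1.44 in clusters 0, 1 and 2, and Col15a1, 0.19 over all fibroblasts, had 2.25, 0.70 and 2.50. Col4a1, 0.11 over all fibroblasts, had 1.36, 0.79 and 1.43. Col14a1, lower at -1.62 over all fibroblasts, had 0.21, 0.18 and -0.44, and Col8a1, at -1.42, had 0.28, -0.09 and 0.11, none past the limit.

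Of the chains of the tdTomato-neg eGFP+ library 9 of 33, 15 of 34 and 4 of 31 were higher in clusters 0, 1 and 2 (6.33%, 6.73% and 7.22% of all genes) and 2 lower in each (3.25%, 4.62% and 3.26%). Col4a1, lower over all fibroblasts, had log2 folds of 0.35, 0.73 and 0.31, and Col15a1 had 0.36, 0.63 and 0.16. Col24a1 remained higher at 0.72, 0.67 and 1.00. Col14a1 remained lower at -1.07, -0.64 and -1.71. In tdTomato+ eGFP+ cells 18 of 30, 14 of 34 and 15 of 31 chains were higher in clusters 0, 1 and 2 (9.93%, 5.6% and 10.1% of all genes) and 1 lower in each (7.86%, 4.23% and 4.57%), with Col1a1 at 1.46, 0.88 and 1.37.

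**Figure D4:**
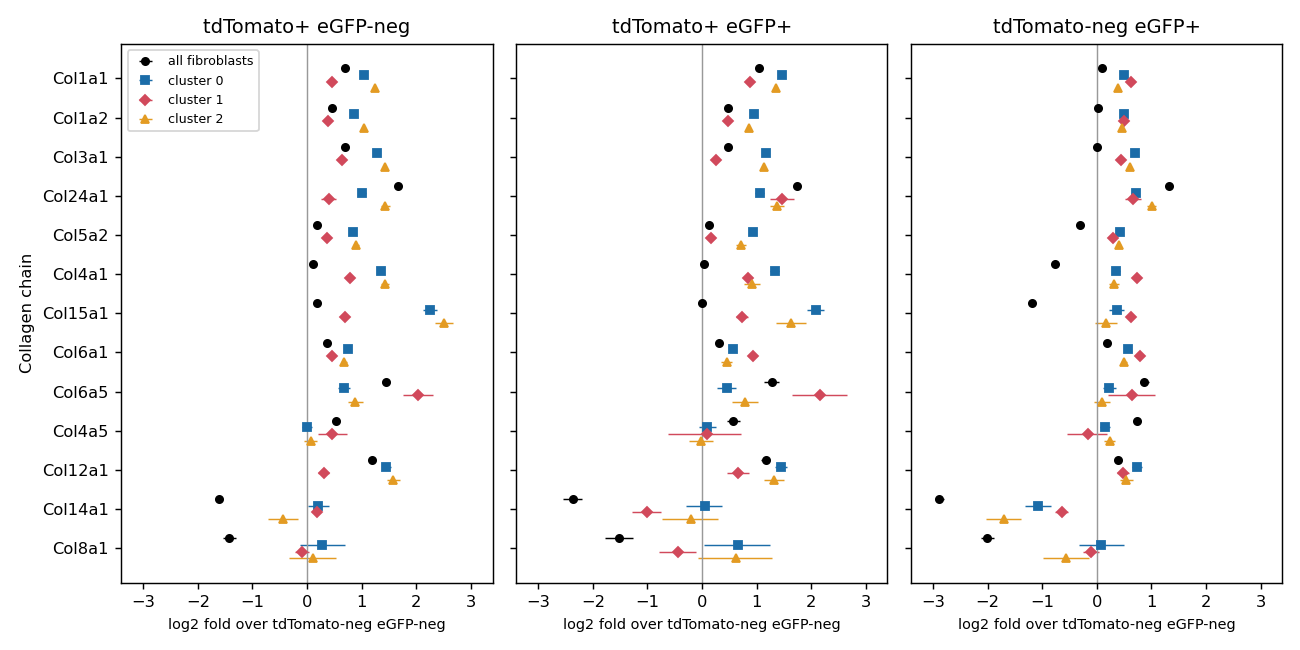
Log2 fold of 13 chains over the tdTomato-neg eGFP-neg library in each reporter-positive population, over all fibroblasts and within clusters 0, 1 and 2, with exact 95% intervals (counting error only). Col4a1 and Col15a1 of the tdTomato-neg eGFP+ library lie below 0 over all fibroblasts and above 0 within each cluster, while Col24a1 lies above 0 in every panel.

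Some chains of type VI collagen differed with the sex marks of the cells, a comparison chosen after the data had been seen. Xist, transcribed from the inactive X chromosome, was found without Y-linked transcripts (Ddx3y, Eif2s3y, Kdm5d or Uty) in 57.1%, 66.0%, 64.5% and 43.7% of the marked fibroblasts of the 4 libraries, and Y-linked transcripts without Xist in the rest. In the tdTomato-neg eGFP-neg, tdTomato+ eGFP-neg, tdTomato+ eGFP+ and tdTomato-neg eGFP+ libraries there were 1973, 1037, 198 and 1733 cells with the Y mark and 2624, 2010, 360 and 1345 with Xist. Of the 27 chains that could be compared in all of them, 4 were higher in cells with the Y mark past a log2 fold of 0.5 in each library and 0 were lower, against 0.822% and 1.29% of 12282 genes. These were Col6a1, Col6a2, Col6a5 and Col6a6. Within single libraries more chains were called, 8 of 36, 11 of 33, 11 of 27 and 9 of 33 higher with the Y mark. Of all genes 4.39%, 6.67%, 6.14% and 7.76% were higher. Lower chains numbered 2, 0, 0 and 2, against 10.5%, 3.99%, 4.64% and 6.03% of all genes. In cluster 0 with the libraries pooled, 10 of 32 chains were higher and 5 lower (8.55% and 6.21% of all genes).

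Col6a5 stood at 44.7, 182, 164 and 80.5 CPM in cells with the Y mark and at 9.06, 17.8, 6.61 and 7.53 in cells with Xist (log2 folds 2.30, 3.35, 4.63 and 3.42). Col6a6 stood at 35, 57.4, 37.1 and 66.5 against 9.94, 5.54, 3.78 and 6.21 (1.82, 3.37, 3.30 and 3.42). Each library had the higher level of both chains in cells with the Y mark. Col6a1, at 519, 760, 791 and 613 against 354, 435, 363 and 304 (0.55, 0.80, 1.12 and 1.01), and Col6a2, at 391, 534, 567 and 446 against 261, 298, 249 and 211 (0.58, 0.84, 1.19 and 1.08), differed less. Col6a3 had log2 folds of 0.15, 0.39, 0.69 and 0.27 and passed the limit in the tdTomato+ eGFP+ library only. In cluster 0 alone Col6a5 stood at 132 against 13.3 (3.32) and Col6a6 at 71.1 against 5.75 (3.63). Since the number of mice per library is not known, the sex and the individual mouse cannot be told apart here. Among cells with Xist the library folds of Col6a5 over tdTomato-neg eGFP-neg cells turned, to -0.45 in tdTomato+ eGFP+ and -0.27 in tdTomato-neg eGFP+ cells. Neither fold was past the limit, so these cells lacked the rise but were not called lower. In tdTomato+ eGFP-neg cells with Xist it stayed higher, at 17.8 against 9.06 CPM.

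**Figure D5:**
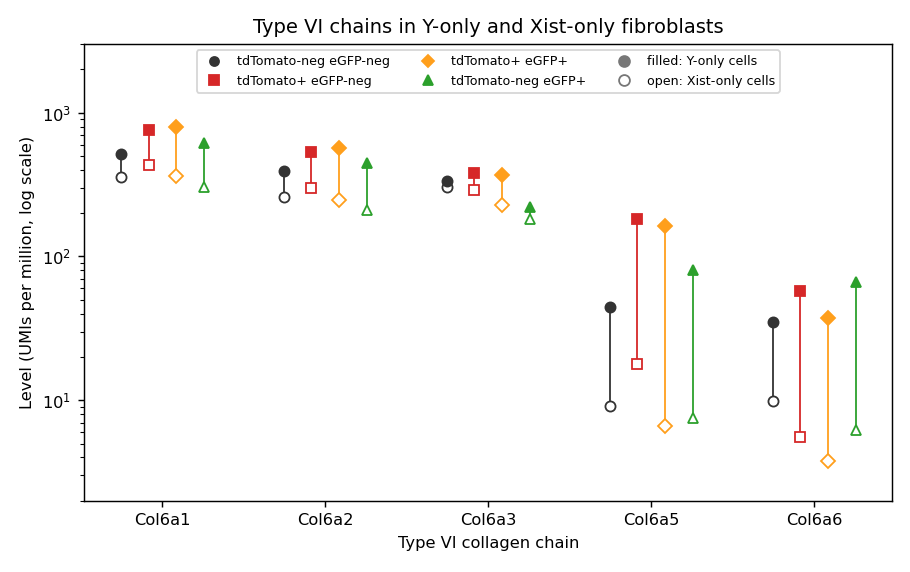
The level of the type VI chains, in CPM on a log axis, in fibroblasts with the Y mark (filled) and with Xist (open) of each of the 4 libraries, with a line joining the pair of each library and no error bars drawn. Col6a5 and Col6a6 are higher with the Y mark in all 4 libraries, by log2 folds of 1.82 to 4.63, and Col6a1 and Col6a2 by 0.55 to 1.19.

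The enzymes and carriers that make collagen were followed as 42 genes in 5 lists. Over all fibroblasts Sparc, which binds collagen outside the cell, stood at 8349 CPM, Serpinh1, the collagen chaperone HSP47, at 1924, Ppib, a prolyl isomerase, at 1192, and P4hb, a subunit of prolyl 4-hydroxylase, at 580. The lysyl oxidases Lox, Loxl2 and Loxl1, which crosslink fibrils, stood at 268, 243 and 203. Against melanoma cells 34 of 42 were higher and 1, P3h2, lower at -2.56 (20.8% and 14.2% of all genes), with a median log2 fold of 2.00. All 7 genes of chaperones and export were higher, as were 7 of 8 of propeptide processing, 7 of 8 of receptors and uptake, 4 of 5 of crosslinking and 9 of 14 of hydroxylation and glycosylation.

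In tdTomato+ eGFP-neg fibroblasts 5 were higher and 7 lower than in tdTomato-neg eGFP-neg fibroblasts (median 0.11), near and above the 12.1% and 11.6% of all genes. Within clusters 0, 1 and 2 it was 20 of 41, 8 of 42 and 18 of 40 that were higher (15.6%, 12.2% and 18.6% of all genes) and 3, 0 and 3 lower (7.39%, 3.55% and 7.3%), with medians of 0.50, 0.24 and 0.47. Over all fibroblasts Serpinh1 (-0.19), Ppib (-0.17), Lox (0.09) and Loxl2 (0.39) did not pass the limit. Higher were Itga2 (1.56), which pairs into a collagen-binding integrin, Adamts14 (1.31) and Bmp1 (0.83), which trim propeptides, Ddr1 (0.66), a collagen receptor kinase, and Tmem38b (0.57). The lower ones included Pcolce2 (-2.35) and Pcolce (-0.65), enhancers of Bmp1, and Tll1 (-2.0), a relative of it. In tdTomato-neg eGFP+ fibroblasts 3 were higher and 8 lower (8.54% and 11.2% of all genes, median -0.09), whereas within clusters 0, 1 and 2 it was 7 of 41, 10 of 41 and 3 of 40 higher (6.33%, 6.73% and 7.22%) and 1, 2 and 3 lower (3.25%, 4.62% and 3.26%), with medians of 0.28, 0.23 and 0.21. In tdTomato+ eGFP+ fibroblasts 3 were higher and 6 lower (6.7% and 9.03%), and within these clusters 17 of 39, 5 of 41 and 14 of 39 were higher (9.93%, 5.6% and 10.1%) and 3, 0 and 1 lower (7.86%, 4.23% and 4.57%). Between clusters 26 of 42 were higher and 4 lower in cluster 1 than in cluster 4 (13% and 12.3% of all genes, median 1.17), all 5 of crosslinking among the higher. Tll1 (-4.81), Ddr1 (-1.98), Itga10 (-1.67) and P3h4 (-1.22) were higher in the mesothelial-like cluster.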

How the data were processed

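Single-cell RNA was captured with 3′ droplet chemistry. The deposited files hold the authors' raw UMI counts per gene and barcode. The submitters' processing notes name Cell Ranger 10.0.0, STAR, Seurat 5.0 and GRCm39, while the file headers name Cell Ranger 8.0.0. Members and gene lists were chosen with earlier results of these data known. Counts were summed per gene and group and given as CPM, for every 1000000 UMIs of the group, with exact Poisson intervals, exact conditional-binomial intervals of the log2 fold at 95%, and a minimum of 10 UMIs over both groups. No p-value was computed, since each population was 1 library. By rule the 12 chains with the most UMIs were given in full for levels by library and for fibroblasts against melanoma cells. They were also given in full for tdTomato+ eGFP-neg against tdTomato-neg eGFP-neg fibroblasts. In the other comparisons only some of the 12 were given. Those, and all other chains, were named after their values were seen. Machinery genes were named by level and fold within their list. Seurat 5.3.0 in R 4.3.3 clustered the cells (2000 variable genes, 25 components, 7 clusters) and marker lists named them. Doublets were not removed in the results above: the automatic threshold of Scrublet (scanpy 1.11.5) marked 0, 0, 6 and 0 cells and so did not work, and removal of an expected share (0.8% per 1000 barcodes) was an alternative. The counting step was tested on simulated data. Python 3.11.15, numpy 2.4.6, scipy 1.17.1 and pandas 2.3.3 were used.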

Additional observations from a re-analysis of the deposited data

Results flagged for a closer look

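In 4 cases a chain was past a log2 fold of 0.5, with an interval excluding 0, in opposite directions against tdTomato-neg eGFP-neg fibroblasts in cells with Xist and in cells with the Y mark. Chains of smaller folds in either set, such as Col6a5, are not counted, and the differences between the marks were not tested. Col6a6 had a log2 fold of -0.84 (95% interval -1.17 to -0.52) in tdTomato+ eGFP-neg cells with Xist and 0.71 (0.56 to 0.87) in those with the Y mark. In tdTomato-neg eGFP+ cells Col6a6 had -0.68 and 0.93. Col23a1, a transmembrane chain, had -0.69 and 0.84 in tdTomato+ eGFP-neg cells, on levels under 6 CPM. Col4a2 had -0.65 and 0.54 in tdTomato+ eGFP+ cells.

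Cells with a UMI of both Ptprc and Laptm5 (immune genes) and none of Pax3, which were not counted as fibroblasts, held the transmembrane chain Col13a1 at 5.35 CPM (15 UMIs in 264 cells) against 0.33 in fibroblasts. All 44 chains together stood at 16873 CPM in these cells against 23205 in fibroblasts. The part of fibroblast RNA in them was not tested. In cluster 5, led by immune genes, 35 UMIs of Col13a1 lay in 5 of 234 cells.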

How the results depend on the processing

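No paired analysis was possible because each population was 1 library, so any 2 populations share fewer than 2 replicate numbers. Of 2155 values of 120 chain folds under the alternatives, 84 had the other sign, and 12 of these belonged to a fold past its limit. In mesothelial-list clusters only, tdTomato-neg eGFP+ cells had log2 folds of 0.15 for Col15a1, 0.20 for Col4a1, 0.30 for Col4a2 and 0.36 for Col6a3, tdTomato+ eGFP+ cells 0.94 for Col28a1, -0.057 for Col4a5 and 0.51 for Col8a1, and tdTomato+ eGFP-neg cells 0.028 for Col8a1. In Xist-only cells Col6a5 had -0.45 (tdTomato+ eGFP+) and -0.27 (tdTomato-neg eGFP+) and Col6a6 -0.68 (tdTomato-neg eGFP+), and in Y-only cells Col28a1 had 0.29 (tdTomato+ eGFP-neg).

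Chains higher in fibroblasts than in melanoma cells numbered 23 to 29 under the 19 alternatives. Chains lower numbered 1 at 100 UMIs or more, 0 after thinning and 2 to 5 with a library left out. Over tdTomato-neg eGFP-neg, the higher chains of tdTomato+ eGFP+ cells numbered 11 in Y-only cells, 11 by the mean over cells, 14 in mesothelial-list clusters and 10 after thinning, and the lower ones 2 in mesothelial-list clusters and 3 after thinning. In tdTomato+ eGFP-neg cells mesothelial-list clusters gave 19 higher and 1 lower, and lower chains numbered 3 in Y-only cells, 4 at 100 UMIs or more and 4 after thinning. In tdTomato-neg eGFP+ cells Xist-only cells gave 4 higher and mesothelial-list clusters 2 lower. For matrix-list over mesothelial-list clusters, Xist-only cells gave 9 higher and 1 lower, and lower chains numbered 6 with 40 components, 4 with all variable genes kept, 6 with at least 5 clusters, 4 with at least 9, 1 with equal weights, 1 with doublets removed and 1 by the mean over cells. Clusters 1 and 4 only, clusters 5 and 6 left out, cluster 3 left out, and Xist-only cells of a single library for cluster 3 were alternatives chosen after the data were seen, and the first gave 7 lower. With a library left out the higher chains numbered 9 (without tdTomato-neg eGFP-neg) to 19 and the lower 0 to 2 (without tdTomato-neg eGFP+). The causes were not tested. Depth limits the chains under 1 CPM, whose folds rest on few UMIs.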
